A study of Sus scrofa with 2 samples.

Results

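The small RNA table of 2 pig skeletal muscles holds 668 entries, of which 287 carry an authors' name that begins with PC followed by a number and an arm (5p or 3p). An entry belongs to the set by that name, and its values play no part in the rule. The 287 entries are compared with 281 entries named after pig miRNAs (ssc) and 100 entries with PN names. The sources used here do not say what the letters PC and PN stand for. LDM is the *longissimus dorsi* of the back, which is glycolytic, and PMM is the oxidative *psoas major* of the loin. Both came from the same female Landrace pigs, aged 210 days, on a common diet and without any treatment. The labels' source names give these muscles, although their extraction text speaks of adipose tissue. Per the study's methods, RNA of the pigs was mixed in equal amounts within each muscle, so there was 1 library per muscle, differences between pigs were not measured, and no difference between muscles has a replicate check. The entries listed for the 2 libraries summed to 7603850 reads in LDM and 8556672 in PMM. miR-1-3p, a miRNA of striated muscle, ranked 1 in both, and miR-499-5p, a miRNA encoded in a slow myosin gene, was 12.2-fold higher in PMM (95% interval 11.6 to 12.9). Fewer cells of a type and less RNA per cell cannot be told apart in such mixtures.

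A miRNA is cut from a hairpin transcript in consecutive steps. The nuclear enzyme Drosha frees the hairpin and Dicer removes its loop, which leaves a short duplex of the 5p and 3p arms with a few unpaired bases at each 3′ end. One arm is usually kept in an Argonaute protein and the other is mostly lost, so the arms of 1 hairpin are often unequal in reads. The kept strand finds its targets mainly through the seed, positions 2 to 8 from its 5′ end. Catalogued miRNAs of mammals often begin with uridine (T in the table). Sequencing alone also yields short pieces of other RNAs, so the match of the arms is one of the features by which a hairpin product is judged.

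The PC entries that carried the most reads are shown first, with the seed in capitals, because the values below turn on them. They are the 10 with the highest mean level, read 5′ to 3′ as consensus sequences of the table.
PC-289-5p: tCCCCAGCtttctcagatccc
PC-311-3p: cCCGACCTcccgtagctcact
PC-48-3p: tTTGTTGGctcctctgaagtga
PC-299-5p: tGACGGGAactccttaccattc
PC-193-3p: tCTGTGAActagaaacctctgg
PC-158-3p: cTCGCGGGggcgcgccgggtt
PC-342-5p: cACAACTCtgggaagtaccattt
PC-14-5p: tCTGGCATtgctgcaagctgag
PC-168-5p: gCTCGACCcctggcctgggaactt
PC-38-5p: aCGGATGAccttgctgtttaca

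The 10 sequences have 10 different seeds, and none of these seeds occurs in an entry named after a pig miRNA. In the order printed their arms are mixed, with 6 from the 5p and 4 from the 3p side.

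PC entries were numerous and low. They made up 98 of the 424 entries listed above 0 in LDM and 222 of the 593 in PMM. Together they held 2887 of the reads listed in LDM, which is 0.0380% (exact Clopper-Pearson 95% interval 0.0366 to 0.0394). In PMM they held 2631 of the listed reads, which is 0.0307% (0.0296 to 0.0319). PN entries, fewer in number, held 0.880% and 0.757%. Reads carried no molecular identifiers, so all intervals here cover counting error only. A single entry, PC-289-5p, held 52.3% of the PC reads in LDM (50.5 to 54.1) and 19.5% of those in PMM (18 to 21.1). Without it the PC share was 0.0181% in LDM and 0.0248% in PMM, so the order of the muscles turned on this entry.

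The median PC entry had 4 reads summed over both libraries, against 16 for PN and 281 for ssc entries. Of the 287, 231 had 3 to 9 reads and 108 had exactly 3, the smallest number the table lists. At the other end 20 PC entries had at least 30 reads and 7 had at least 100. A mean over both libraries of at least 1 RPM was reached by 39 PC entries, and 10 RPM by 5. For RPM the value was divided by the total of the listed entries in its library and put on the common RPM scale.

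Most PC entries were listed in 1 library only. Only 33 were above 0 in both, 65 were above 0 in LDM only and 189 in PMM only. Thus 88.5% of PC entries were at 0 in a library, against 47.8% of all entries of the table. The PMM-only entries were 65.9% of the PC names against 36.5% of the table, and the LDM-only entries 22.6% against 11.2%. Because no value below 3 reads is listed, an entry needs at least 6 summed reads to be above 0 in both libraries, so the shares were next read at matched depth.

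**Figure D1:**
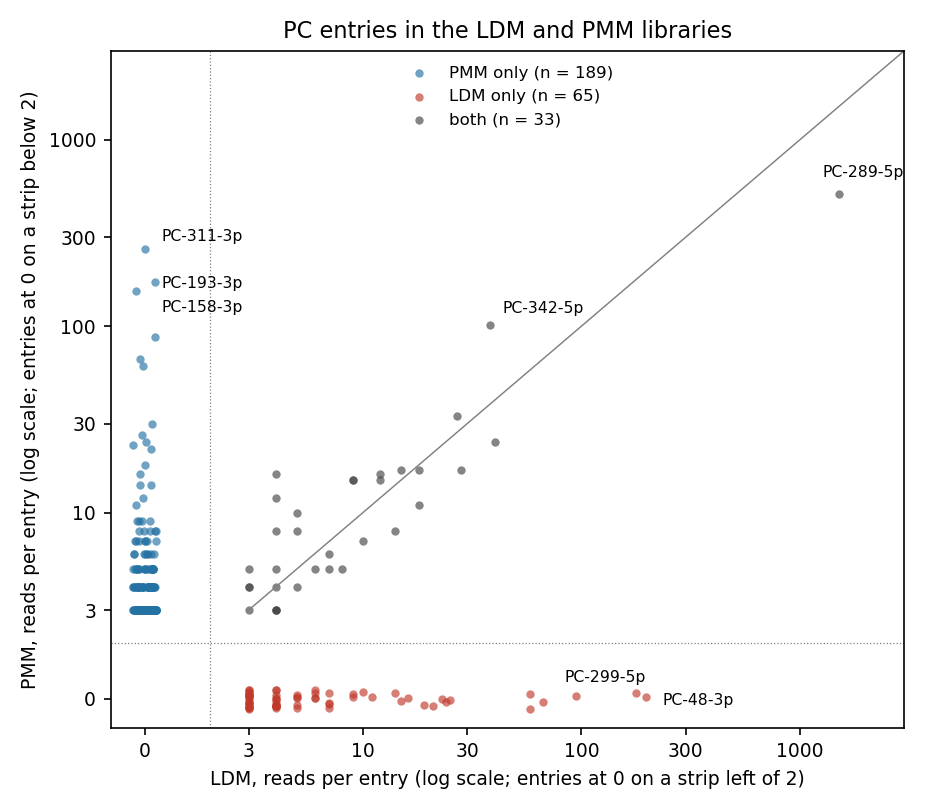
Reads of each PC entry in LDM (horizontal) and PMM (vertical), both on log scales, with entries at 0 on a separate strip beyond the dotted line and a small sideways scatter there. The diagonal marks equal reads, colours mark where an entry was listed, and the blue and red strips hold the 189 entries listed in PMM only and the 65 listed in LDM only, some of them above 100 reads.

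At 3 to 9 summed reads 221 of 231 PC entries, 28 of 33 PN entries and 28 of 34 ssc entries were in 1 library only. At 10 to 29 reads the counts were 20 of 36 for PC, 3 of 33 for PN and 5 of 31 for ssc. At 30 or more reads they were 13 of 20 for PC, 1 of 34 for PN and 0 of 216 for ssc. Of those 13 PC entries, 6 were in LDM only and 7 in PMM only. The PC share thus stayed above 50% at every depth, while the shares of the other names fell towards 0 as reads increased. These are counts of entries in 2 libraries and no test of the difference was run.

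**Figure D2:**
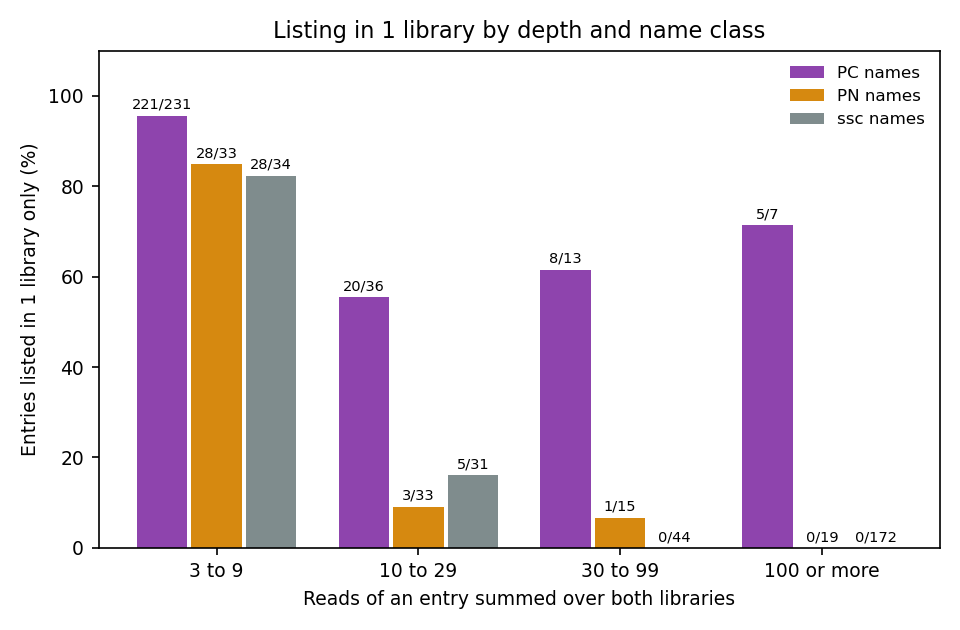
Share of entries listed in 1 library only (vertical axis, percent), by reads summed over both libraries and by name class, with the number of such entries over all entries of the class above each bar. The PC bars stand at 95.7% for 3 to 9 reads, 55.6% for 10 to 29, 61.5% for 30 to 99 and 71.4% for 100 or more, where the PN and ssc bars are at 0.

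The highest entries listed in a single library were as follows, whereas the highest PC entry of all, PC-289-5p, was listed in both. The folds given for them take a 0 as at most 3 reads, which the sources used here do not state and which was not tested. If a 0 arose otherwise, these folds and limits do not hold. PC-311-3p had 0 reads in LDM and 259 in PMM. Against a floor of 3 reads in LDM this is at least 75-fold higher in PMM, with a lower counting limit of 25.4. PC-193-3p had 0 and 173 reads, at least 50.1-fold higher in PMM (lower limit 16.9). PC-158-3p had 0 and 154 reads, at least 44.6-fold higher in PMM (15).

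On the side of LDM, PC-48-3p had 197 reads in LDM and 0 in PMM, at least 75.6-fold higher in LDM (lower limit 25.5). PC-299-5p had 177 and 0 reads, at least 67.9-fold higher (22.9). PC-14-5p had 94 and 0 reads, at least 36.1-fold higher (12). These 6 entries were picked as the 3 highest of either library alone, so their 0 in the other library follows from that rule. PC-168-5p with 87 reads in PMM and PC-38-5p with 67 in LDM were likewise at 0 in the other library.

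Among the 5 PC entries that reached 10 RPM, 2 exceeded a 2-fold excess in PMM and 3 a 2-fold excess in LDM, on the log2 scale with a pseudocount of 1 RPM. Of all 185 entries at that level, 21.6% showed such an excess in PMM and 6.49% in LDM. Since 4 of the 5 had all their reads in 1 library and passed the level through that library, they had to differ, and the count is given as a description. The median log2 ratio of PMM to LDM over the 5 was −1.74, which is the value of PC-289-5p, against 0.35 over the 185. Over PC entries of at least 1 RPM it was −0.0146, and without a filter it was 0.43, so its sign turned. The 0.43 is the value that the pseudocount gives to an entry with 3 reads in PMM and 0 in LDM, of which there were 88.

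PC-289-5p was the only one of these 5 entries listed in both libraries. It had 1738 normalised reads in LDM and 513 in PMM, from 1510 and 513 reads, and was 3.39-fold higher in LDM (exact conditional binomial 95% interval 3.06 to 3.75). No entry for the 3p arm of number 289 is in the table. Its log2 ratio was −1.74 as deposited and between −2.02 and −2.11 under the other scalings.

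The 33 entries listed in both libraries were mostly low. Their summed reads ran from 6 to 2023 with a median of 15. As deposited, 15 were higher in PMM and 18 higher in LDM, and the median log2 ratio was −0.05, against 0.21 over the 349 entries of the table listed in both. After centring, the trimmed mean of log ratios or the total without the 10 highest entries, 9 were higher in PMM and 24 higher in LDM. Each of these scalings lowers all PMM values by 1 factor, PC or not. In that order the PC median became −0.203, −0.154 and −0.222, against −0.038, −0.011 and −0.053 over the 349. In 28 of the 33 the counting interval of the ratio held 1, so a difference was not detectable at this depth.

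In the other 5 entries the interval did not hold 1 as deposited. How often this occurred among entries of any name listed in both libraries was not computed. Each interval is at 95% for its entry alone, so the count of 5 is a description only. PC-342-5p had 38 reads in LDM and 101 in PMM, 2.31-fold higher in PMM (1.58 to 3.45). PC-344-5p had 4 and 16 reads, 3.48-fold higher in PMM (1.12 to 14.3). PC-345-3p had 40 and 24 reads, 1.92-fold higher in LDM (1.13 to 3.33), and PC-12-5p had 28 and 17, 1.90-fold higher in LDM (1.002 to 3.69), so that the latter lay at the edge. PC-289-5p was the fifth. PC-344-5p lost this under each of the other scalings, with lower limits of 0.863 to 0.919, whereas PC-289-5p, PC-342-5p, PC-345-3p and PC-12-5p kept it. PC-11-3p, with 18 reads in LDM and 11 in PMM, was 1.88-fold higher in LDM as deposited (0.842 to 4.41), and its lower limit was 1.03 to 1.09 under the other scalings. PC-87-3p passed likewise under centring and under the total without the 10 highest, but not under the trimmed mean. By contrast PC-18-3p, with 27 and 33 reads, and PC-55-5p, with 15 and 17, had ratios of 1.06 (0.619 to 1.84) and 0.985 (0.463 to 2.12). PC-344-5p, PC-345-3p, PC-12-5p, PC-18-3p, PC-55-5p, PC-11-3p and PC-87-3p were singled out after their values were seen.

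The library of an entry went in part with its number. The PC numbers run up to 345 and 271 of them have an entry. Of these, 61 were listed in LDM only, 176 in PMM only and 34 in both. A number was counted in both if its entries together had reads in both libraries. This takes in PC-22, PC-212 and PC-242, whose arms were in opposite libraries. A joined entry was counted under each of its numbers, as with PC-35 and PC-36. Among numbers 101 to 150, 34 of 35 were in PMM only, and among numbers 151 to 200, 34 of 36. Among numbers 1 to 50, 24 of 48 were in LDM only and 16 in PMM only. Among numbers 251 to 300, 16 of 36 were in LDM only and 17 in PMM only. The blocks 51 to 100, 201 to 250 and 301 to 350 had 65.9%, 68.4% and 58.8% in PMM only. Unbroken runs were long. From PC-102 to PC-170 all 47 numbers with an entry were in PMM only, from PC-182 to PC-207 all 19, and from PC-243 to PC-263 all 16. In the other direction all 15 numbers from PC-34 to PC-48 were in LDM only, as were all 9 from PC-265 to PC-276. The sources used here do not say how the authors assigned the numbers, and its part in the listing was not tested. The runs were noticed after the values were seen.

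**Figure D3:**
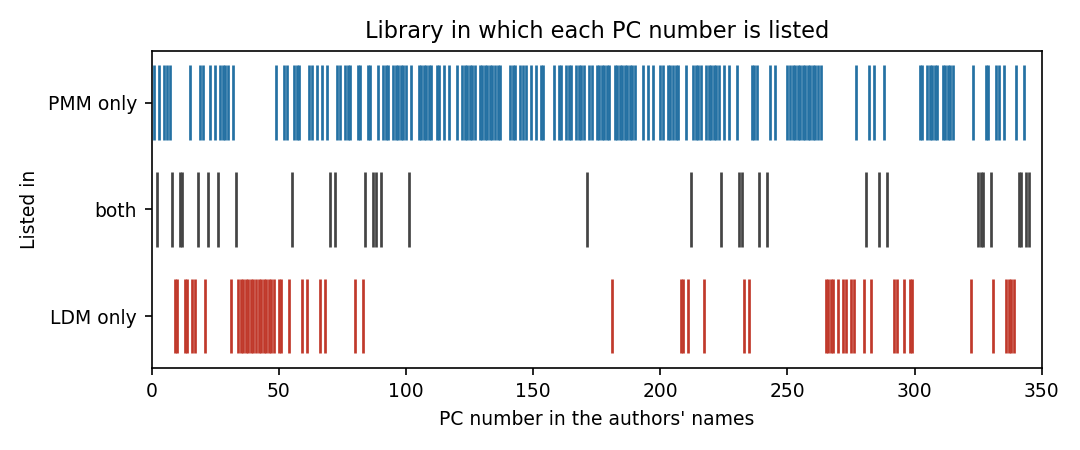
Each line is 1 of the 271 PC numbers with an entry, placed by its number (horizontal axis) and by the library in which its entries were listed (rows). Lines in the LDM-only row crowd between 34 and 48 and between 265 and 299, and the PMM-only row is nearly unbroken from 102 to 207.

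Nearly the same sequence was in some cases listed under neighbouring numbers, each with its reads in a different library. An ungapped overlap of at least 15 nt with at most 1 mismatch was found in 8 pairs of PC entries on the same strand, and 7 of the 8 pairs had neighbouring numbers. In 6 pairs one entry was in LDM only and the other in PMM only. The sequences of 5 of these pairs are shown with the shared stretch in capitals, LDM entry first.
PC-331-5p: GGACTTCCCGTGTGGCTCACAACa
PC-332-5p: GGACTTCCCGTGTGGCTCACAAC
PC-322-5p: CCACCAGAAAGAGACTGTAGGg
PC-323-5p: CCACCAGAAAGAGACTGTAGG
PC-16-3p: cTACTCGGCGTTGCTTCTACA
PC-15-3p: TACTCGGCGTTGCTTCTACA
PC-66-3p: CGGGGCTCGGGCAGGGAGGG
PC-65-3p: gCGGGGCTCGGGCAGGGAGGGg
PC-242-3p: CCCGCGGTCCTCCTCCGc
PC-243-3p: ccCCCGCGGTCCTCCTCCG

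PC-331-5p had 4 reads in LDM and 0 in PMM, and PC-332-5p, shorter by 1 base at its 3′ end, had 0 and 5. PC-322-5p had 3 and 0 reads and PC-323-5p 0 and 5. PC-16-3p had 5 and 0 and PC-15-3p 0 and 8. In each of these pairs the shared stretch had 3 to 5 reads in LDM and 5 to 8 in PMM. PC-66-3p and PC-242-3p had 7 reads each in LDM, and their partners PC-65-3p and PC-243-3p had 3 and 5 in PMM. A further pair, PC-55-5p and PC-54-5p, differed at 1 position, and PC-54-5p had 6 reads in LDM and 0 in PMM. In the pair PC-57-3p and PC-58-3p both were in PMM only with 3 reads each. When overlapping entries were joined, 86.0% of 279 PC sequences were still in 1 library, against 88.5% before. None of the 6 highest single-library entries had such a partner. These pairs were named after their values were seen.

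The 5p and 3p entries of 1 number were compared next. Both arms were listed for 32 pairs of PC entries, of 32 for PN and 123 for ssc names. In 26 of the 32 PC pairs the arms were listed alike, with 17 pairs in PMM only, 4 in LDM only and 5 in both libraries. Of all PC entries 65.9% were in PMM only and 22.6% in LDM only, so many unrelated entries are listed alike too. The arms were listed alike in 21 of 32 PN pairs and 96 of 123 ssc pairs, nearly always in both libraries. In 3 PC pairs the arms were in opposite libraries. Arms of 1 number are named as products of 1 hairpin and are not separate evidence. The 5p arm had more reads in 14 pairs, the 3p arm in 13, and they were equal in 5. The arms with the most reads are shown as pairs, with the bases paired in the predicted duplex in capitals.
PC-311-5p: aTGGGCTACGGGctGTCcagg
PC-311-3p: cccGACctCCCGTAGCTCAct
PC-299-5p: tGACGGGAACTCCTtACCattc
PC-299-3p: actaGGTtGGGAGTTCCTGTTgt
PC-158-5p: tCCCGGCGCtccCCCCCGCGGGgg
PC-158-3p: CTCGCGGGGGcGCGCCGGGtt
PC-193-5p: CAGAGGTTTCcAGcTTATAGGa
PC-193-3p: TCTGTGAaCTaGAAACCTCTGg
PC-342-5p: cACAACTCTGGgaAGTACCATTt
PC-342-3p: AATGGTGCTCCAGGGTTGTaca
PC-38-5p: ACGGATGACCTTGCTGTTTAca
PC-38-3p: TAAGCAGCAAGGTTGTCTGTc

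Number 311 had 14 reads on the 5p arm and 259 on the 3p arm, all in PMM, an 18.5-fold difference between the arms. Number 193 had 3 and 173 reads, again all in PMM, and number 158 had 26 and 154, a 5.92-fold difference between its arms. In all 3 the 3p arm was the higher. Number 299 had 177 reads on the 5p arm and 58 on the 3p arm, all in LDM, and number 38 had 67 and 21, also all in LDM. In these the 5p arm was 3.05-fold and 3.19-fold the other. Number 342 was in both libraries, with 38 reads in LDM and 101 in PMM on the 5p arm and 3 and 5 on the 3p arm. The listing of the lower arm followed that of the higher arm in all 6 numbers.

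The arms of these numbers were complementary. A duplex was predicted for each pair from the consensus sequences alone, since the hairpins were not analysed here. PC-38 formed 20 base pairs (−29.5 kcal/mol) with 3′ overhangs of 2 nt on the 5p strand and 1 nt on the 3p strand. PC-342 and PC-193 formed 19 base pairs each, PC-158 18, PC-299 16 and PC-311 14.

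Over all PC pairs the base pairs ran from 5 to 20 with a median of 15, against 7 to 20 and a median of 17 for ssc names and 13 to 20 and a median of 17 for PN names. At least 14 base pairs were formed in 20 of 32 PC pairs (62.5%), 30 of 32 PN pairs and 119 of 123 ssc pairs (96.7%). This limit was set after the values were seen. Both 3′ overhangs were 1 to 3 nt long in 15 of the 20 PC pairs and in 89 of the 119 ssc pairs. The arms were listed alike in 18 of the 20 PC pairs and also in 8 of the 12 PC pairs below the limit. Those 12 included numbers 302 with 5 base pairs, 92 with 6 and 262 with 7, each with 3 to 6 reads per arm. All 3 pairs whose arms were in opposite libraries were among those 12, and 2 of the 3 share a 5p entry that carries 4 numbers (PC-1, PC-22, PC-242 and PC-282).

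**Figure D4:**
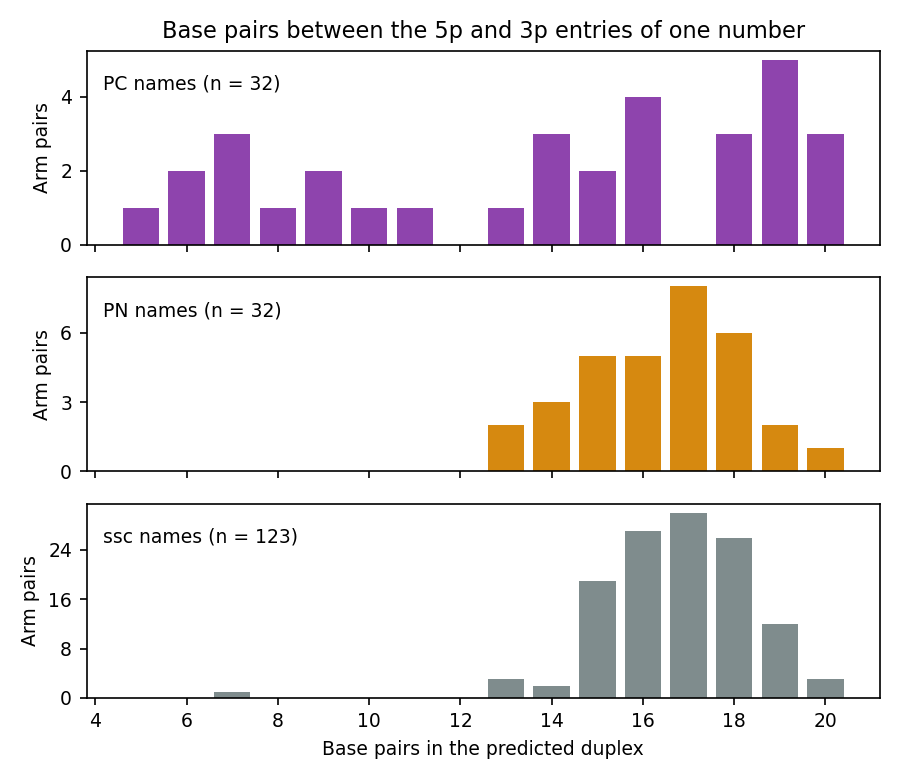
Number of arm pairs (vertical axes, each panel with its own scale) by base pairs in the duplex predicted from the 5p and 3p consensus sequences, for PC, PN and ssc names. PC pairs fall into a set at 5 to 11 and a set at 13 to 20 base pairs, whereas nearly all PN and ssc pairs lie at 13 to 20.

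Some PC arms were complementary without an unpaired base inside the duplex, which was the case for 7 of the 20 PC pairs with at least 14 base pairs and 6 of the 119 ssc pairs. Numbers 189 and 190, which share their entries, formed 20 base pairs (−36.2 kcal/mol) with 2 nt overhangs at both ends, from 4 reads on either arm in PMM. Number 184 formed 20 base pairs from 4 and 5 reads in PMM. These pairs were named after their values were seen and are shown with paired bases in capitals.
PC-189-5p: TGATGCCTGGCATTTTGTGTgt
PC-189-3p: ACACAAAATGCCAGGCATCAgg
PC-184-5p: AGTCTTGATTCTCTGTTTTGtt
PC-184-3p: tCAAAACAGAGAATCAAGACTga

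PC entries were of the length of miRNAs but more variable. They measured 18 to 25 nt with a median of 22, and 80.8% were 21 to 23 nt long, against 91.8% of ssc entries and 87% of PN entries. Of the PC names 15 were at most 19 nt long, against 1 ssc entry and 1 PN entry. Uridine (T) was the first base in 37.3% of PC, 39.1% of ssc and 41% of PN entries. Guanine was first in 14.6%, 8.90% and 7%. Among PC entries listed in both libraries 16 of 33 began with T, against 24 of 65 in LDM only and 67 of 189 in PMM only. The 5p and 3p arms were balanced, with 141 and 146 entries, counting a joined name by its first part. A name that joined several PC numbers was given to 15 entries.

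GC content was higher and wider in PC entries. The median was 52.4% (quartiles 43.5 and 61.9) against 47.6% in ssc entries (40.9 and 54.5) and 45.5% in PN entries (39.1 and 54.5). At least 70% GC was found in 28 PC entries (9.76%), 8 ssc entries (2.85%) and 5 PN entries (5%). Of the 28, 19 were in PMM only, 8 in LDM only and 1 in both. These counts lie near the shares over all PC entries, 65.9% in PMM only and 22.6% in LDM only. Among the 28, PC-158-3p (85.7% GC, 154 reads in PMM) and PC-153-3p (86.4%, 61 reads in PMM) had the most reads, both at 0 in LDM. The highest GC was that of PC-158-5p (91.7%, 26 reads in PMM). A run of at least 4 equal bases occurred in 31.0% of PC, 19.9% of ssc and 19% of PN entries. No test was run on these features.

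**Figure D5:**
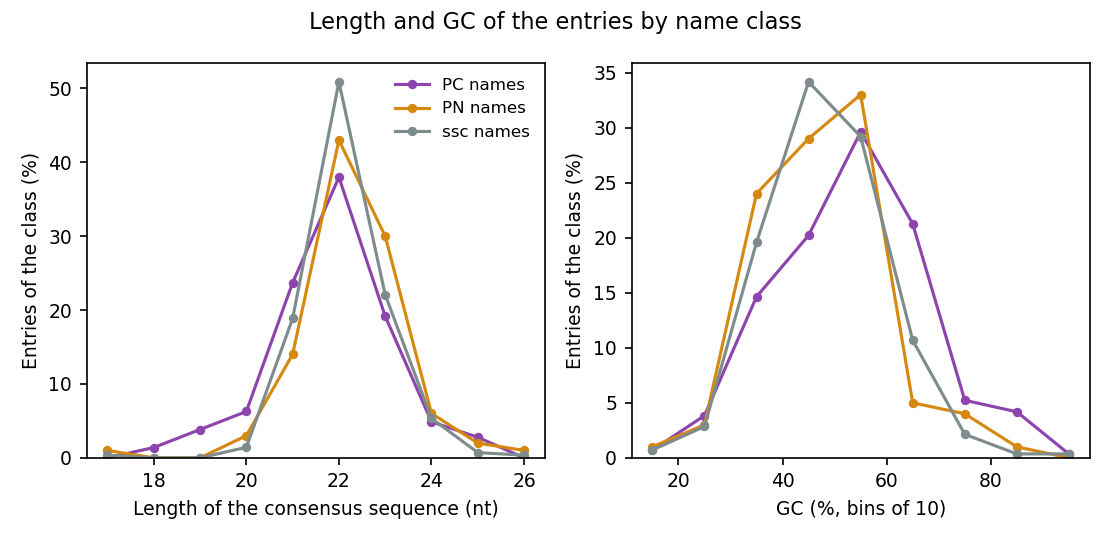
Share of the entries of each name class (vertical axes, percent) by length in nt (left) and by GC in bins of 10 percent (right). The PC line has 5.23% of its entries at 19 nt or less and lies above the ssc line in the bins from 60% to 90% GC.

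The seeds of PC entries were nearly all their own. The 287 entries had 281 different seeds, and 5 of them (1.74%) shared positions 2 to 8 with an ssc entry, against 25 of 100 PN entries. Over the fixed list of 20 miRNA families common in muscle, of which 18 were found by name, a seed was shared with 1 family, miR-143. The PC and ssc entries that share a seed are shown in turn, with the seed in capitals, to let the remaining bases be compared.
PC-43-3p: tGAGATGAgagcccttggccact
miR-143-3p: tGAGATGAagcactgtagctcg
PC-186-3p: aTAAAGCTgctatgaatatttgt
miR-9-3p: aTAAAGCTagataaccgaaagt
PC-272-3p: aCTGCACTaggctggagctca
miR-191-3p: gCTGCACTtggatttcgttcc
PC-252-5p: aCATGGATctcttggcttttgag
miR-490-5p: cCATGGATccccaggtgggt
PC-169-5p: aGGGGCTGgtgacagaggatgt
miR-185-3p: aGGGGCTGgctttcctctggt
miR-128-2-5p: gGGGGCTGaggcactgtccga

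Beyond the seed these sequences differed. With the 7 seed positions counted, PC-43-3p and miR-143-3p, a miRNA abundant in smooth muscle, were equal at 12 of 22 positions. Counted likewise, PC-186-3p and miR-9-3p, from the precursor of a miRNA of nerve tissue, were equal at 9 of 22. PC-169-5p shared its seed with miR-185-3p and with miR-128-2-5p. All 5 PC entries had few reads in 1 library, namely 5 in LDM for PC-43-3p, 4 in LDM for PC-272-3p, and 7, 4 and 3 in PMM for PC-186-3p, PC-252-5p and PC-169-5p. miR-143-3p itself had 118651 reads in LDM and 236740 in PMM, so the PC entry added little to the reads that carry this seed. A shared seed is a description of the letters and does not show shared targets.

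No PC entry overlapped an ssc entry on the same strand by 15 nt or more with at most 1 mismatch. With the PN entries 3 such overlaps were found. PC-270-5p (4 reads in LDM, 0 in PMM) was contained whole in PN-55-5p, which had 418 reads in LDM and 284 in PMM. PC-332-3p (0 and 3 reads) was contained whole in PN-82-3p (5 and 9 reads). PC-141-3p (0 and 4 reads) overlapped PN-65-3p (5 and 9 reads) by 15 nt with 1 mismatch. The pairs with a contained sequence are shown with the shared stretch in capitals.
PC-270-5p: TTCAAGTAACCCAGGATAG
PN-55-5p: TTCAAGTAACCCAGGATAGgct
PC-332-3p: TCAGTCTCAACTGCAAAGA
PN-82-3p: TCAGTCTCAACTGCAAAGAagt

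Seeds were rarely shared among PC entries, with 5 seeds held by 11 entries. Of these, 3 seeds belong to the overlapping pairs given above. A further seed joined PC-309-5p, PC-314-5p and PC-212-5p, which had 24, 23 and 4 reads in PMM and 0 in LDM, and the last joined PC-90-3p (4 reads in LDM and 3 in PMM) with PC-67-3p (0 and 3 reads). The 3 entries of the first group are shown with the seed in capitals.
PC-309-5p: tATGGTCActgctgtgacacgg
PC-314-5p: cATGGTCAcctgtggttct
PC-212-5p: tATGGTCAttaccaaggctctt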

How the data were processed

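Small RNA of LDM and PMM was read single-end from 1 library per muscle, made from RNA pooled over pigs. Sscrofa 10.2 is the build named in the submitters' processing notes. For the mapping tool, the catalogue of known miRNAs, the normalisation and the rule behind PC names, the status is: not given in the sources used here. Their table, as deposited by the authors, holds a consensus sequence and a normalised signal per entry and library, its length and a p-value of the authors' own comparison, which was not used. In LDM 423 of 424 values above 0 were whole multiples of 1.15 units and in PMM 592 of 593 were whole (tolerance 0.001), PC entries among them without exception, so reads were taken as LDM divided by 1.15 and PMM as listed. The smallest listed number was 3 reads, and this was taken as the floor for entries at 0, an assumption that was not tested.

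Log2 ratios carried a pseudocount of 1 RPM (8.65 units), and folds without a log2 label carried none. Intervals were exact. Duplexes were predicted with RNAduplex (ViennaRNA 2.7.2). Named entries were the 10 highest, up to 6 per direction with the greatest ratio at 10 RPM or more (5 entries passed), the 3 highest of either library alone, the 6 highest arm pairs and entries sharing a seed with ssc names. The set of PC names, the lists and the rules were chosen with earlier results of these data known. One pair of overlapping PC entries is counted but not described here. Scripts were tested on simulated data. Scripts ran under Python 3.11.15 with matplotlib 3.10.9, scipy 1.17.1, pandas 2.3.3 and numpy 2.4.6.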

Additional observations from a re-analysis of the deposited data

How the results depend on the processing

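No paired analysis was possible because each muscle has 1 library, and for the same reason no replicate was left out. Low depth limits these results, with 231 of 287 PC entries at 3 to 9 reads. Alternatives for entries in both libraries, for overlaps and for base pair limits were added with the data in view. Stricter limits leave fewer entries by construction, and scalings multiply PMM by 1 factor; otherwise the cause was not tested. At a limit of 10 reads, 28 PC entries passed in LDM, 32 in PMM, 10 in both, 18 in LDM alone and 22 in PMM alone. At 1 RPM the counts were 33, 36, 12, 21 and 24. Entries at least 2-fold higher in PMM and in LDM (2 and 3) were 22 and 19 without a filter, 13 and 13 at 1 RPM, and 0 and 1 at 100 RPM. Shares over all entries were not computed at these other filters. For an entry with all reads in 1 library, passing 2-fold is set by its depth and the pseudocount. These counts are therefore a description only. The median log2 ratio (−1.74) was −2.09 after centring, −2.02 with the trimmed mean and −2.11 with the total without the 10 highest. It was −0.0146 at 1 RPM and 0.43 without a filter, where its sign turned. The 0.43 is the value of entries with 3 reads in PMM and 0 in LDM. The PC share of reads without PC-289-5p was 0.0181% in LDM and 0.0248% in PMM. With at least 10 reads in each arm there were 6 arm pairs, 5 of them listed alike. Their median difference in log2 ratio was 1.57 against 0.49 over all pairs. For arms with all reads in 1 library the log2 ratio is set by their depth and the pseudocount, as in number 311 (1.39 and 4.95). Such a difference therefore does not show arms that disagree between the muscles. Seeds of positions 2 to 7 were shared with ssc entries in 23 PC entries, and the ungapped overlap was found in 0. Of 40 values of 8 single entries under the scalings and pseudocounts, 34 stayed within their counting interval with their direction. PC-18-3p changed sign under the 3 scalings and PC-289-5p moved past its interval in the same direction.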

Other observations

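Some PC entries shared a short piece of sequence, which was noticed in the data. The word GGAACTCC, or its reverse complement GGAGTTCC, occurred in 9 of the 287 PC entries and in 0 of the PN and 0 of the ssc entries. It was the most frequent word of 8 bases among PC entries, counting both strands. The most frequent words of ssc entries, AAACATCC and AGGTTGTA with their reverse complements, were each found in 8 of them, the former in miR-30 entries and the latter in let-7 and miR-374 entries. The PC entries with this word are shown with the word in capitals.
PC-299-5p: tgacgGGAACTCCttaccattc
PC-299-3p: actaggttgGGAGTTCCtgttgt
PC-55-5p: ggGGAACTCCcagaccagcttc
PC-54-5p: cgGGAACTCCcagaccagcttc
PC-55-3p: agctggtctgGGAGTTCCcggg
PC-2-5p: taatgGGAACTCCtagttgaga
PC-35-5p: cataaagGGAACTCCtagacag
PC-29-5p: cacgacaGGAACTCCtaatagt
PC-69-5p: tgacaGGAACTCCcaatttttg

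Of the 9, 4 were in LDM only, 3 in PMM only and 2 in both. PC-299-5p and PC-299-3p, with 177 and 58 reads in LDM, hold most of the reads. All 5p entries of the set carry GGAACTCC. Both 3p entries carry GGAGTTCC, which pairs with the word in the 5p arm of their number. The 9 are thus not all separate, and PC-54-5p differs from PC-55-5p by 1 mismatch. PC-55-3p and PC-35-5p are joined in the table with PC-56-3p and PC-36-5p. The positions of the word and the repeats of the pig genome were not analysed here.

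PC-343-3p, with 3 reads in PMM and 0 in LDM, was the reverse complement of miR-545-5p over 20 bases without a mismatch, shown in capitals. miR-545-5p had 129 reads in LDM and 110 in PMM.
PC-343-3p: ATCCAATAAACATTTACTGAgg
miR-545-5p: TCAGTAAATGTTTATTGGATga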
